A study of Homo sapiens with 2 samples.

Results

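The genes described here are 55 protein-coding genes of DNA replication and mitosis, a set named for being switched off as cells become senescent, out of 19974 protein-coding genes on chromosomes 1 to 22 and X. They were taken by name from a list, and the data were the authors' 2 lists of JUNB peaks. JUNB binding was profiled by CUT&RUN, in which an antibody guides a nuclease to its target on chromatin and the released fragments are sequenced. The cells were IMR-90 human lung fibroblasts, and the antibody was against JUNB in both libraries. The untreated group was 1 library from cells with no treatment. The etoposide group was 1 library from cells given etoposide, a topoisomerase II poison that breaks DNA, and the labels used here give no dose or time for it. With 1 library per condition there is no spread between replicates, so no difference between the libraries was tested. All 55 genes were found in the RefSeq annotation of GRCh38. Gene expression was not measured in these files, so whether the genes were on or off in either library is not known here.

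Before a cell divides, the origin recognition complex, CDC6 and CDT1 load the MCM helicase onto replication origins, and the loaded helicase is switched on by CDC45 and the GINS complex. Many of these genes, and many genes of mitosis, are transcribed only in cycling cells, through E2F factors at the entry to S phase and through MYBL2 and FOXM1 later. In resting and senescent cells the retinoblastoma family and the DREAM complex hold them silent. JUNB is a subunit of AP-1, a dimeric factor that in fibroblasts binds mostly at enhancers.

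Each peak has a summit, the base with the most stacked fragments, and 2 windows around each gene were used. A boundary summit lay within 1 kb of either end of the annotated gene, and a nearby summit lay inside the gene or within 10 kb of it. There were 33491 listed peaks for untreated cells and 26590 for etoposide. Fragments at a summit were derived from each peak's deposited fold and p-value, with medians of 15 (untreated) and 13 (etoposide), and 5 was the fewest in either list. These numbers are not scaled to depth, which peak lists do not give. The lowest local background, a hint of relative depth, was 0.482 fragments untreated and 0.377 with etoposide. Of 13 fibroblast marker genes, 12 had a nearby untreated summit and 10 a nearby etoposide summit (92.3% and 76.9%). The same counts were 3 and 1 of 4 for epithelial, 2 and 2 of 4 for blood and 3 and 2 of 3 for endothelial markers, and peaks do not show expression. Over all protein-coding genes 49.6% had a nearby untreated and 38.9% a nearby etoposide summit. Genes of similar length gave 49.1% and 36.2% for the fibroblast list and 53.4% and 42.8% for the epithelial list. They gave 42% and 31.8% for the blood list and 67.6% and 58.5% for the endothelial list.

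In the untreated library 10 of the 55 genes, 18.2%, had a boundary summit (exact binomial 95% interval 9.08% to 30.9%, counting error only). They were the licensing genes GMNN, MCM3 and MCM7, the fork genes PCNA and CDC45, the nucleotide gene TK1 and the mitotic genes AURKA, AURKB, CENPA and CENPE. Over all protein-coding genes the share was 16.6%, and among genes of similar length it was 18.3%, which would be 10.1 of 55 genes. In the etoposide library 3 of 55 genes had a boundary summit, 5.45% (1.14% to 15.1%), namely CENPE, CDC25C and MCM4. All protein-coding genes gave 6.87% and genes of similar length 7.57%, or 4.16 of 55. The counts of both libraries were thus close to those of other genes of the same length. The set had 10 boundary genes untreated and 3 with etoposide, and over all protein-coding genes the numbers were 3318 and 1372.

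**Figure D1:**
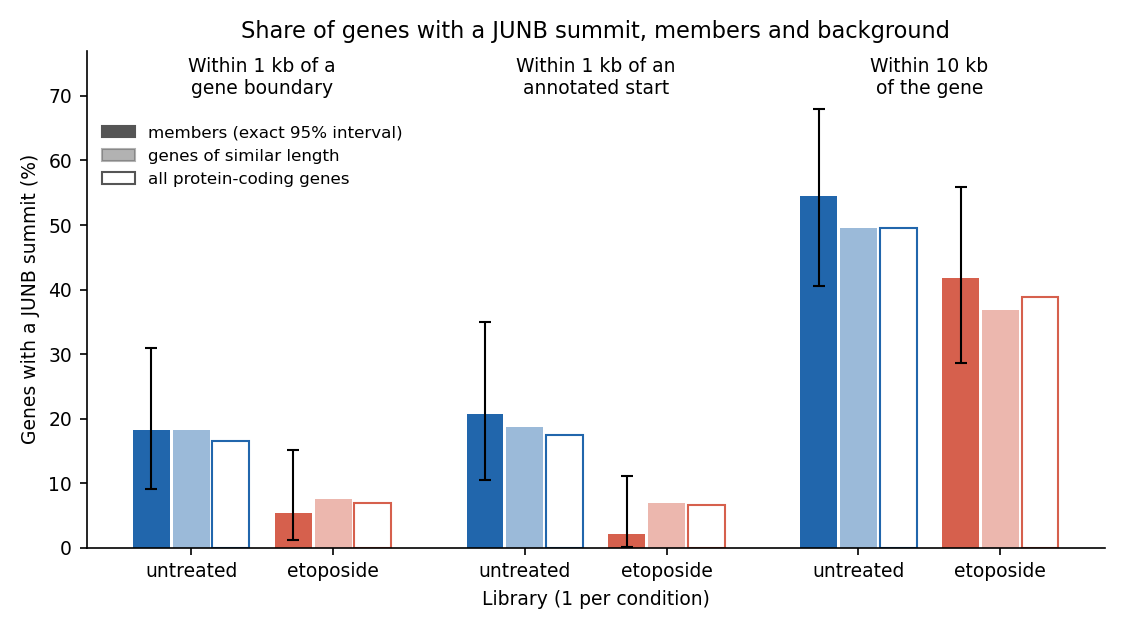
Percent of genes with a JUNB summit (y axis) in the untreated and etoposide libraries, within 1 kb of a gene boundary, within 1 kb of an annotated start and within 10 kb of the gene. Filled bars are the replication and mitosis genes with exact 95% binomial intervals, pale bars protein-coding genes of similar length and open bars all protein-coding genes. In each window the untreated bar is the higher one, as it is for all genes, and every background bar lies inside the interval of the filled bar beside it.

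Most boundary genes had their summit in 1 list only, as did most boundary genes over the whole annotation (2285 in the untreated list alone, 339 in the etoposide list alone and 1033 in both). Of the 55 genes, 9 had one in the untreated library alone (16.4%, against 11.4% of all protein-coding genes and 12.7% of genes of similar length). A further 2 had one in the etoposide library alone (3.64%, against 1.7% of all genes), and 1, CENPE, in both (1.82%, against 5.17%). The remaining 43 had none in either list (78.2%, against 81.7%). The one boundary in both lists was the far end of CENPE, with the untreated summit 92465 bp from its annotated start.

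Gene starts were counted apart, where strand was known for 48 of the 55 genes from the RefSeq promoter table (no entry for MCM4, MCM5, GINS4, E2F8, CCNE2, AURKA and FOXM1). Of the 48, 10 had an untreated summit within 1 kb of an annotated start, 20.8% (10.5% to 35%), beside 17.5% of the 15813 genes in the table. They were MCM3, MCM7, ORC1, GMNN, PCNA, CDC45, TK1, AURKB, CENPA and CDC25C. With etoposide 1 of 48 did, CDC25C, 2.08% (0.0527% to 11.1%), beside 6.61%. An untreated start summit alone was found at 9 genes (18.8%, against 12.3% of all genes), an etoposide one alone at 0 (against 1.45%), both at 1 (2.08%, against 5.15%) and neither at 38 (79.2%, against 81.1%). The 10 genes had 11 untreated start peaks, and 0 of these 11 overlapped an etoposide peak. Over all protein-coding genes 682 of 2635 untreated start peaks did, 25.9%. The start peaks of the set had a median of 13 fragments (6 to 20) and a median rank of 22060. All untreated start peaks had a median of 13 fragments and a median rank of 19653.

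The start peaks are shown first for the 6 genes whose untreated start summit ranked best. Each line gives the 250 bases before the start nearest to the summit, 5′ to 3′ on the strand of the gene, from the RefSeq promoter table of GRCh38. Capitals mark matches, on either strand, to 6 kinds of short motif: TGACTCA or TGAGTCA for AP-1, TGACGTCA for the CRE bound by ATF and CREB factors, TTTGAA for the CHR read by the DREAM complex, TTTCCCGC or TTTGGCGC for E2F, CCAAT for NF-Y and GGGCGG for the GC box. CDC45 lies at chr22:19479216-19479465 on the plus strand, MCM7 at chr7:100101398-100101647 on the minus strand, MCM3 at chr6:52284743-52284992 on the minus strand, PCNA at chr20:5126623-5126872 on the minus strand, AURKB at chr17:8210250-8210499 on the minus strand and GMNN at chr6:24774687-24774936 on the plus strand.
CDC45: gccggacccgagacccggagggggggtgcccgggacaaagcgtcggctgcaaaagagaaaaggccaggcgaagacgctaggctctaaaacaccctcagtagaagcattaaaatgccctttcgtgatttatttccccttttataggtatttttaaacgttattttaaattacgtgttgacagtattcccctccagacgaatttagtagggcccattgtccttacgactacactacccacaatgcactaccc
MCM7: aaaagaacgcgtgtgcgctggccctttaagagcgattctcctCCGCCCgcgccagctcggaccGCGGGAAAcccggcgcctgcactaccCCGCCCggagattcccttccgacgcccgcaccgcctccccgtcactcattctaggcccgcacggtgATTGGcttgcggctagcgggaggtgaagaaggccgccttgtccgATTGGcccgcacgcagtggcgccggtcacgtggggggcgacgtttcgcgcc
MCM3: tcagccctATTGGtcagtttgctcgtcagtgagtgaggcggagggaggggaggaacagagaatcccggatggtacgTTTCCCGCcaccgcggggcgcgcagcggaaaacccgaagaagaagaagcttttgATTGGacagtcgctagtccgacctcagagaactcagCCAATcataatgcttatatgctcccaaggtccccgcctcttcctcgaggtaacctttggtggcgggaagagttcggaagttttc
PCNA: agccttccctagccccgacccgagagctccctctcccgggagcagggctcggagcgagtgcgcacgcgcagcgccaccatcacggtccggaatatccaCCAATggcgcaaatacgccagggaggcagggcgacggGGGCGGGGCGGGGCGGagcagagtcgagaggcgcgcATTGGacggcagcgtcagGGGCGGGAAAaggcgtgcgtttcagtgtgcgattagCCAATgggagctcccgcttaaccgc
AURKB: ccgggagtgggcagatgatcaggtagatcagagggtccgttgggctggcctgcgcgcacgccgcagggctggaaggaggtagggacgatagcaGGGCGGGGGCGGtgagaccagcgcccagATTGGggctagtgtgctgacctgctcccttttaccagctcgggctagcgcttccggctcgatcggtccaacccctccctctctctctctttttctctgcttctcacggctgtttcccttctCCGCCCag
GMNN: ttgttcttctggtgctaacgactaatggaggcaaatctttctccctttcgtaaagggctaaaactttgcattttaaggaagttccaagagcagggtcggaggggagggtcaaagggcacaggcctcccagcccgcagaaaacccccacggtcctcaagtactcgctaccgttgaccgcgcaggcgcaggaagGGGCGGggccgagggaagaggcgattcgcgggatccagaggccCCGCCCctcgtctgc

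None of the 6 stretches held the AP-1 or CRE letters. MCM7, MCM3 and PCNA each held 1 E2F match, 187, 174 and 59 bases before the start. MCM7 held 2 CCAAT matches in reverse, and MCM3 and PCNA held 3 in either direction. PCNA had 4 GC boxes, of which 3 overlapped in 1 run. CDC45 had no match to any of the 6 kinds before the start shown, and GMNN had 2 GC boxes. The summits did not lie on these stretches: they were 151, 152 and 157 bp inside CDC45, PCNA and GMNN, and 358, 440 and 607 bp upstream of the starts of MCM7, MCM3 and AURKB. Among start genes not printed, the untreated summit lay 42 bp inside TK1 and 57 bp upstream of a listed start of CDC25C.

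The same letters were counted in the whole promoter windows, 250 bases before to 50 after each listed start. E2F letters were in 20 of 48 genes of the set, 41.7%, and in 3.71% of all 15813 protein-coding genes. CCAAT was in 35 of 48, 72.9%, against 42.1%. CHR letters were in 11, 22.9% against 15.8%, among them CDK1, PLK1, CCNB2, CDC20 and MKI67, and the GC box was in 38, 79.2% against 64.3%. The CRE was in 4, CCNA2, CENPE, MCM10 and RFC3, 8.33% against 3.0%. None of these 4 had a JUNB summit at its start, where 17.5% of all genes had an untreated and 6.61% an etoposide one. Of the 2762 genes with an untreated start summit 4.89% had the CRE. AP-1 letters were in 0 of 48, where 5.27% of all genes and 9.16% of the 2762 genes with an untreated start summit had them. CCAAT was in all 10 genes with an untreated start summit and in 25 of the 38 without (65.8%), and E2F letters were in 5 of the 10 and 15 of the 38. Over all 2762 genes with an untreated start summit the shares were 52.7% for CCAAT and 4.71% for E2F. A gene with several listed starts had several windows in which to match and several starts at which a summit could count. The number of listed starts was not matched, and a link between motif and summit was not tested. CDC45 and GMNN are counted for CCAAT, and GMNN for E2F, although the stretches printed above for them hold no such match. The counts thus do not place a motif at the start that has the summit.

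**Figure D2:**
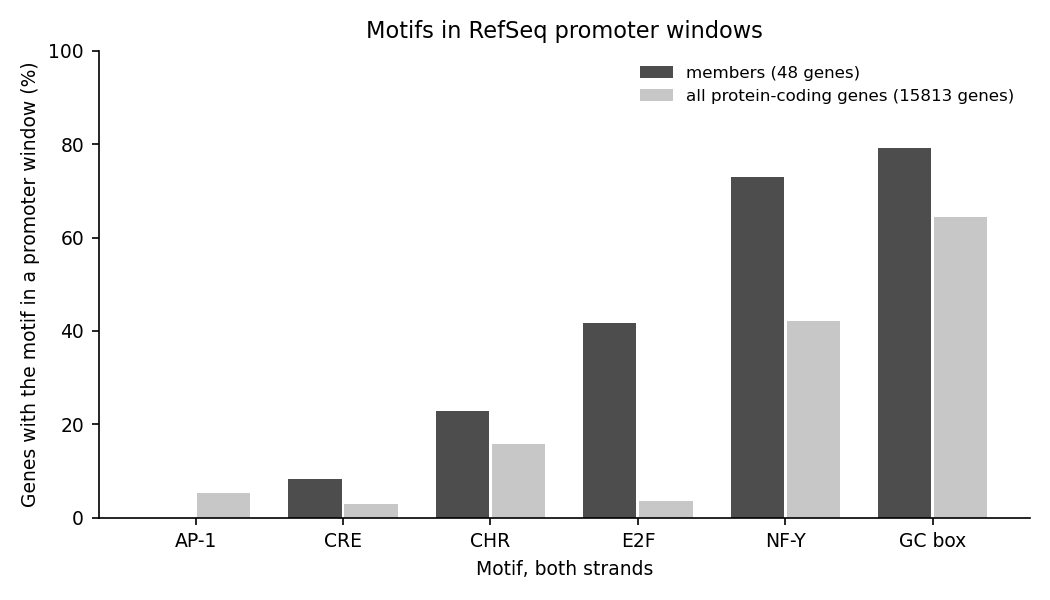
Percent of genes (y axis) with each motif (x axis) in a RefSeq promoter window of 300 bases, for the 48 replication and mitosis genes in the table (dark) and all 15813 protein-coding genes (pale). The widest gap is at E2F, 41.7% against 3.71%, and the dark bar for AP-1 is at 0.

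GC content of the promoter window was taken because boundary summits varied with it over all genes. The share of genes with an untreated boundary summit was 6.95% in the lowest of 10 groups by promoter GC, 24.4% in group 7 and 11.1% in the highest. The set had a median promoter GC of 63.8%, close to the 62.7% of all genes. Among genes of similar promoter GC 20.2% had an untreated and 8.02% an etoposide boundary summit, a little above the 18.2% and 5.45% of the set. The GC match used only the 48 genes with a promoter entry, whereas 18.2% and 5.45% are shares of all 55.

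Of the 11 licensing genes 3 had an untreated and 1 an etoposide boundary summit, where genes of similar length would give 2.06 and 0.865. Nearby summits were found at 6 in each list, where such genes would give 5.24 and 3.75. Of the 9 with a promoter entry, 4 had an untreated start summit and 0 an etoposide one. Genes of similar length would give 1.68 and 0.631. The exact interval of the untreated start share ran from 13.7% to 78.8%. MCM3 and MCM7 are subunits of the MCM helicase. MCM7 had an untreated peak on chromosome 7, 100101623 to 100102050, with 20 fragments (exact Poisson 95% interval 12.2 to 30.9, counting error only), an authors' fold of 7.62 over local background, a -log10 q of 11.91 and rank 9568. Its summit lay inside the neighbouring gene AP4M1, and the nearest etoposide summit was 14.6 kb away. MCM7 also had a stronger peak in both lists, 5.24 kb from the gene and nearer to COPS6, at 100087090 to 100087612 untreated with 25 fragments, a fold of 10.1 and rank 3952, and at 100087076 to 100087295 with etoposide with 17 fragments, a fold of 9.17 and rank 4893. MCM3 had an untreated peak on chromosome 6, 52284714 to 52285276, with 15 fragments, a fold of 7.37, a -log10 q of 9.51 and rank 14100, and no etoposide summit within 32.9 kb. GMNN encodes geminin, which blocks CDT1 so that origins are not loaded again. Its untreated start peak, 24774982 to 24775247 on chromosome 6, had 16 fragments, a fold of 5.48, a -log10 q of 6.98 and rank 22060, and the nearest etoposide summit was inside the gene 5.46 kb away with 19 fragments and rank 6321. GMNN also had a shared peak 2.02 kb past the gene, with 7 fragments and rank 30222 untreated against 14 fragments and rank 6481 with etoposide.

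ORC1, the largest subunit of the origin recognition complex, had a pair of untreated peaks inside the gene at a listed start, 175 and 472 bp from it, with 11 and 13 fragments. Their summits also lay 0.354 and 0.651 kb from the neighbouring gene PRPF38A. They were not boundary summits because the annotated gene reaches over 5 kb further. The nearest etoposide summit to either was at least 38.8 kb away, although ORC1 had a shared peak 7.5 kb from the gene, inside CC2D1B, with 12 fragments untreated and 11 with etoposide. MCM4 was the only licensing gene with an etoposide boundary summit, 0.656 kb inside the gene on chromosome 8, at 47961235 to 47961652, with 7 fragments (2.81 to 14.4), a fold of 5.36, a -log10 q of 4.43 and rank 23807. It had no nearby untreated summit. MCM5 had a shared peak inside the gene, with 10 fragments untreated (rank 24326) and 13 with etoposide (rank 6795). MCM2, MCM6, MCM10 and CDT1 had no nearby summit in either list.

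CDC6, the loading factor, had the best ranked untreated peak of the set. It lay 3.72 kb from the gene on chromosome 17, at 40283978 to 40284762, with 30 fragments (20.2 to 42.8), a fold of 9.39 and rank 3304. Its etoposide counterpart at 40284063 to 40284599 had 21 fragments, a fold of 8.5 and rank 4308. Both summits were nearer to the gene WIPF2 than to CDC6, at 0.026 and 0.355 kb from it.

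Among the 14 genes of the replication fork, 7 had a nearby untreated and 4 a nearby etoposide summit, where genes of similar length would give 7.35 and 5.66. CDC45, which joins MCM and GINS into the working helicase, had the best ranked start peak of the set. It lay on chromosome 22 at 19479254 to 19479685, with 20 fragments (12.2 to 30.9), a fold of 9.95, a -log10 q of 15.57 and rank 5611, and the nearest etoposide summit was 76.1 kb away. PCNA is the sliding clamp that holds polymerases on DNA. It had an untreated peak at its start, 5126332 to 5126804 on chromosome 20, with 15 fragments, a fold of 7.1, a -log10 q of 9.12 and rank 15211, and another with 8 fragments 1.93 kb past the gene, inside TMEM230. There was no etoposide summit within 27.5 kb of the first.

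GINS3 and GINS4 had shared peaks inside the gene. The GINS4 peak had 26 fragments untreated (rank 4649) and 18 with etoposide (rank 4172), and the GINS3 peak had 10 (rank 23051) and 7 (rank 24912). GINS1 had an etoposide peak alone, 9.28 kb away with 6 fragments, and GINS2 had none. Of the polymerase subunits, POLA1 had an untreated peak of 13 fragments deep inside the gene and POLD1 one of 8 fragments 7.65 kb away, inside NR1H2. POLE and the primase subunit PRIM1 had none. RFC2, a subunit of the clamp loader, had an untreated peak with 14 fragments and rank 10657, RFC3 an etoposide peak with 13 fragments, and RFC4 and RFC5 none. The RFC3 summit lay inside the gene, 100534 bp from the nearest listed start. No etoposide boundary summit was found at the 14 fork genes (0%, which allows up to 23.2% by the exact interval), where genes of similar length would give 1.05 and all genes had 6.87%.

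Of the 4 genes of nucleotide supply 3 had a nearby untreated and 2 a nearby etoposide summit, where genes of similar length would give 2.1 and 1.64. RRM2, the small subunit of ribonucleotide reductase, had a shared peak inside the gene, 2083 bp from its start, with summits 8 bp apart. It had 27 fragments (17.8 to 39.3) and rank 6683 untreated, and 24 fragments (15.4 to 35.7) and rank 2849 with etoposide, which made it the best ranked etoposide peak among genes with no boundary summit. A second shared peak in RRM2 had 11 and 8 fragments, with the untreated summit 71342 bp from the nearest listed start. RRM1, the large subunit, had 1 peak in each list, with 17 and 11 fragments and summits 0.364 kb apart, which did not overlap and so did not count as shared. TK1, thymidine kinase, had an untreated start peak on chromosome 17, 78186875 to 78187185, with 7 fragments (2.81 to 14.4), a fold of 5.4, a -log10 q of 4.63 and rank 30222, near the weak end of the list. TYMS had no nearby summit.

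The 10 regulators of S phase entry and chromatin had 0 boundary summits in either list, and genes of similar length would give 1.92 untreated and 0.787 with etoposide. Nearby summits were found at 6 of them untreated and 4 with etoposide, where genes of similar length would give 5 and 3.66. EZH2, the methyltransferase of Polycomb, had a shared peak inside the gene with summits 7 bp apart, 23 fragments and rank 4709 untreated and 15 fragments and rank 6773 with etoposide. The untreated EZH2 summit was 63424 bp from the nearest listed start. UHRF1, which brings maintenance methylation to replicated DNA, had a strong untreated peak of 26 fragments and rank 4810 inside ARRDC5 with no counterpart within 12.4 kb, and a weaker shared peak of 9 fragments untreated (rank 24005) and 13 with etoposide (rank 7305). E2F8, a repressor of the E2F family, had a shared peak of 15 and 10 fragments. E2F1 had 1 untreated peak with 5 fragments, the fewest found in either list, inside NECAB3, and E2F2 had none. FOXM1, the factor of late cell cycle genes, had a pair of untreated peaks with 8 and 14 fragments inside the gene. CDC25A had an untreated peak with 19 fragments 1.69 kb away, and MYBL2 an etoposide peak with 7 fragments 9.22 kb away and 0.459 kb from GTSF1L. The cyclin E genes CCNE1 and CCNE2 had none.

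Mitotic genes gave the one boundary found in both lists. CENPE is a kinesin that links chromosomes to spindle fibres, and its boundary peak on chromosome 4 spanned 103105836 to 103106043 in the untreated list, with 12 fragments (6.2 to 21.0), a fold of 7.19, a -log10 q of 8.25 and rank 17575. In the etoposide list it spanned 103105821 to 103106356, with 19 fragments (11.4 to 29.7), a fold of 10.9, a -log10 q of 16.31 and rank 2698, the best etoposide rank of the set. The intervals of the fragment numbers overlapped. A second shared peak in CENPE had 13 and 14 fragments, and another place in the gene was listed for untreated cells alone.

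AURKB and AURKA are the Aurora kinases of the centromere and the spindle poles. AURKB had an untreated peak 0.281 kb outside the gene on chromosome 17, 8210708 to 8210950, with 12 fragments, a fold of 7.11, a -log10 q of 8.13 and rank 18049, and no etoposide summit within 37.2 kb. AURKA had an untreated peak 0.205 kb from a boundary and inside CSTF1, on chromosome 20 at 56392337 to 56392538, with 9 fragments, a fold of 6.0, a -log10 q of 5.76 and rank 26743, and an etoposide peak elsewhere, 11.6 kb away inside the gene, with 13 fragments and rank 4945. CENPA, the histone variant of centromeres, had an untreated peak 0.314 kb upstream on chromosome 2, 26785568 to 26785769, with 7 fragments, a fold of 5.04, a -log10 q of 4.07 and rank 31656. CDC25C, a phosphatase that switches on CDK1, had a different start peak in each list, 5.75 kb apart: the untreated one had 6 fragments and rank 32817 at a downstream start, and the etoposide one had 9 fragments (4.12 to 17.1), a fold of 7.26, a -log10 q of 7.68 and rank 13896, on chromosome 5 at 138337570 to 138337758 and inside FAM53C as well.

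PLK1, a kinase of mitotic entry, had a shared peak 8.36 kb away inside DCTN5, with 11 fragments untreated (rank 25611) and 13 with etoposide (rank 11720). MAD2L1, of the spindle checkpoint, had an etoposide peak alone, 2.47 kb past the gene with 21 fragments (13.0 to 32.1) and rank 4667. BUB1, of the same checkpoint, had an etoposide peak of 7 fragments. CENPF, a kinetochore protein, had peaks of 16 and 14 fragments in the 2 lists with summits 0.299 kb apart that did not overlap, and another untreated one of 11 fragments. CDC20, the activator of the anaphase complex, had an untreated peak 8.96 kb away. There was no nearby summit in either list at CDK1, CCNA2, CCNB1, CCNB2, BUB1B or MKI67. Of the 16 mitotic genes 6 were thus without a nearby summit in either list, 37.5%, beside 47.6% of genes of similar length and 45.8% of all genes.

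**Figure D3:**
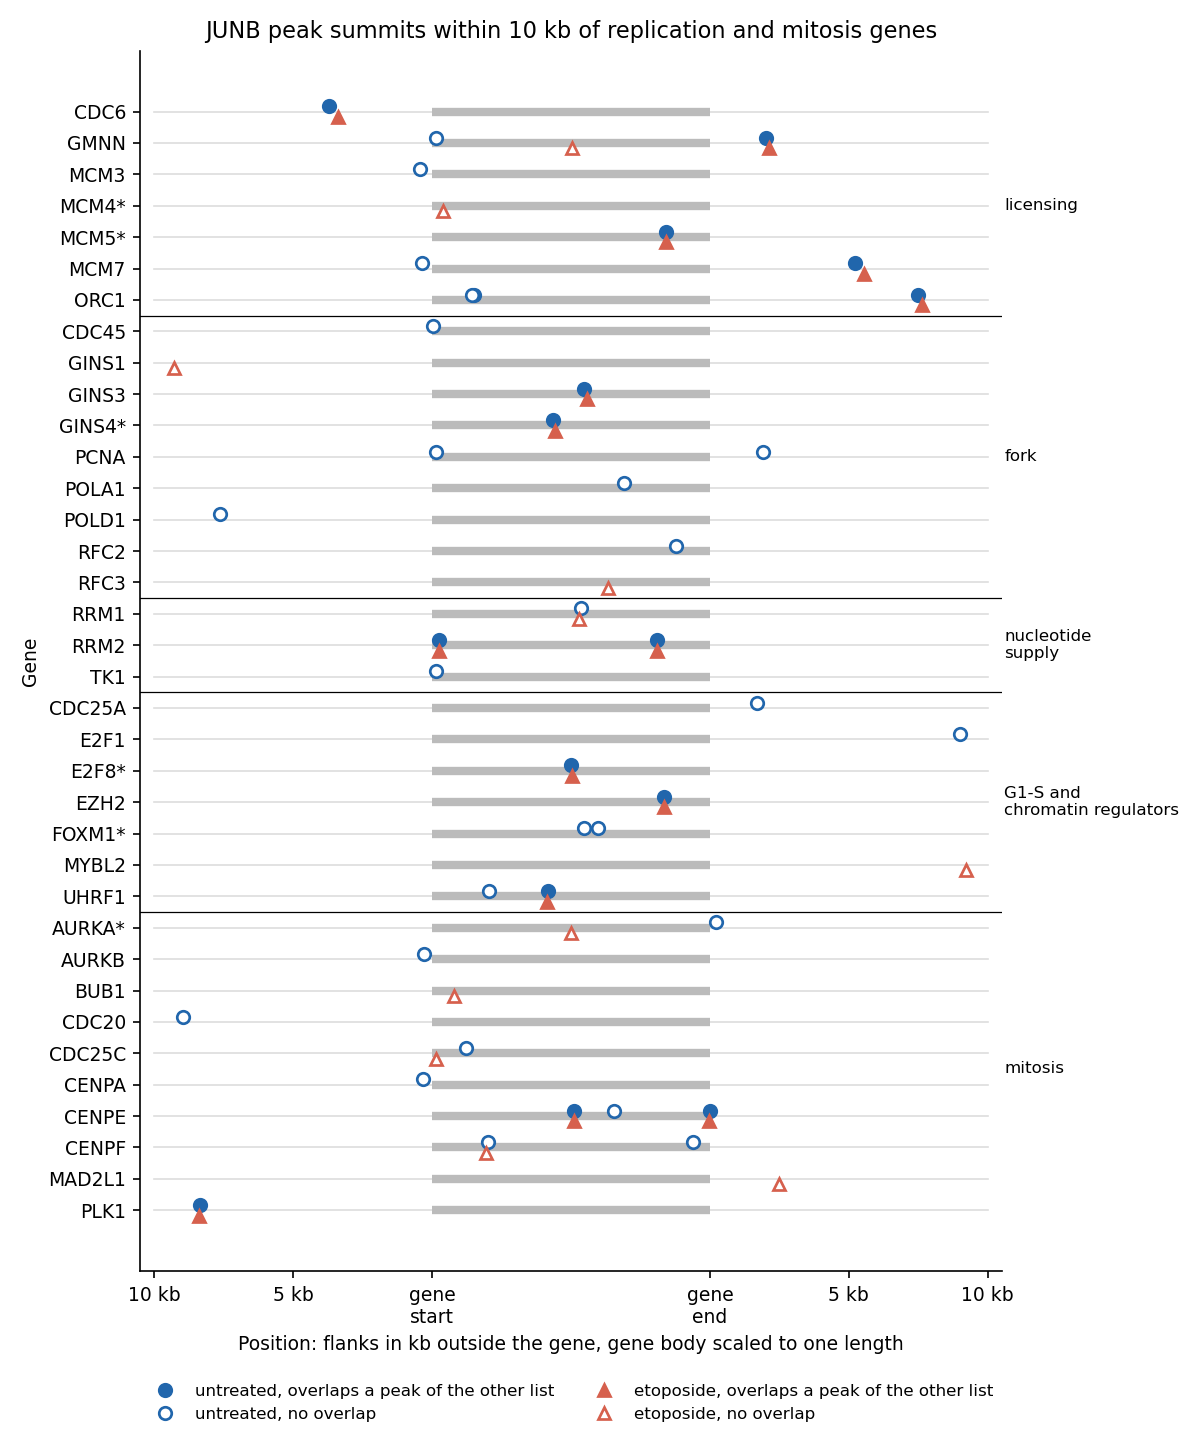
JUNB summits at the 36 replication and mitosis genes with a nearby peak, one gene per row and grouped by role, with flanks in kb and the gene body (grey) scaled to one length. Circles are untreated and triangles etoposide, filled where the peak overlaps a peak of the other list. Genes with a star are drawn in genome order because the promoter table has no entry for them. Some open circles lie at the left edge of the gene bodies, and the others lie further inside genes, at the right edge or in the flanks. Filled pairs lie inside genes or in the flanks.

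Counted over the wider window, 30 of the 55 genes had a nearby untreated summit, 54.5% (40.6% to 68.0%), beside 49.6% of all protein-coding genes and 49.6% of genes of similar length. With etoposide 23 did, 41.8% (28.7% to 55.9%), beside 38.9% and 36.9%. Both shares lay close to the background. A nearby summit in both lists was found at 17 genes (30.9%, against 34.3% of all genes), in the untreated list alone at 13 (23.6%, against 15.3%), in the etoposide list alone at 6 (10.9%, against 4.61%) and in neither at 19 (34.5%, against 45.8%). With the number of untreated peaks cut to the strongest 26590, the length of the etoposide list, the counts were 24 and 23 genes, and all protein-coding genes gave 43% and 38.9%. Among the 10000 strongest peaks of each list the order turned, with 8 genes untreated and 13 with etoposide, where all genes gave 21.6% and 20%.

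**Figure D4:**
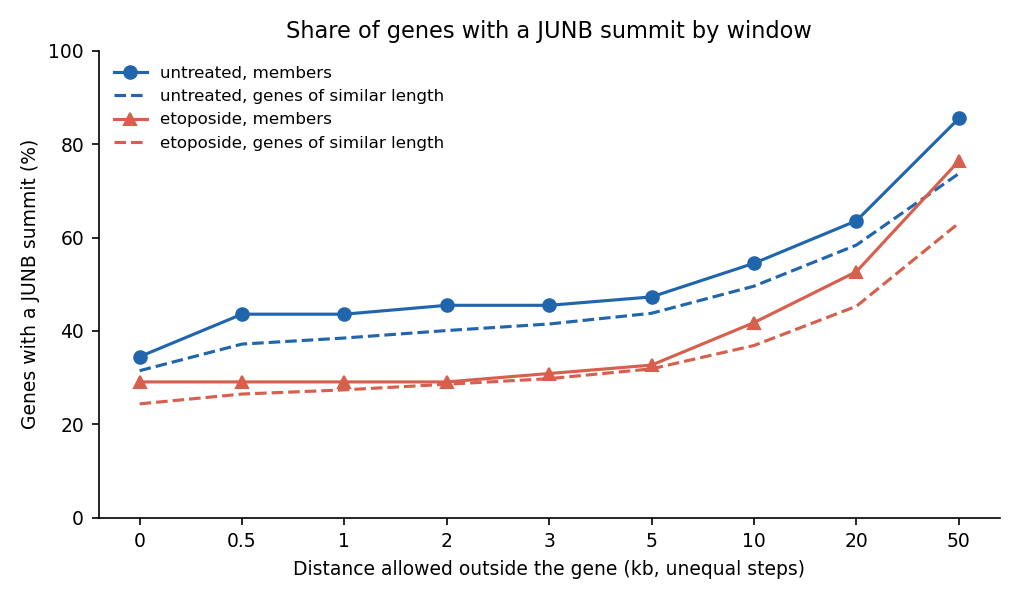
Percent of genes with a JUNB summit (y axis) as the distance allowed outside the gene grows from 0 to 50 kb (x axis, unequal steps). Solid lines are the 55 replication and mitosis genes and dashed lines genes of similar length, each for both libraries. At 50 kb 85.5% of the set had an untreated and 76.4% an etoposide summit, against 73.7% and 63.1%.

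The 55 genes had 41 nearby peaks in the untreated and 26 in the etoposide list, and no peak was near more than 1 of them. In the untreated list 15 of 41 overlapped an etoposide peak (36.6%, against 48.3% of all peaks near protein-coding genes), and in the etoposide list 15 of 26 overlapped an untreated peak (57.7%, against 65.2%). Of the 11 untreated start peaks 0 were shared, and of the other 30 untreated peaks 15 were (50%, against 51.6% over all genes). Among these 30 are 6 at genes with no promoter entry, whose distance from a start is not known here. The 15 shared places were at 13 genes, and the summits differed by at most 150 bp at 13 of the 15. The untreated library had more fragments at 9 of the 15 shared places and the etoposide library at 6. Over the 17119 overlapping pairs of the whole lists the untreated library had more at 74.0% and the etoposide library at 20.3%. The etoposide rank was the better at 9 of the 15, beside 53.5% of all pairs. The 6 places with more fragments in the etoposide library were at CENPE (2 places), GMNN, MCM5, PLK1 and UHRF1.

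**Figure D5:**
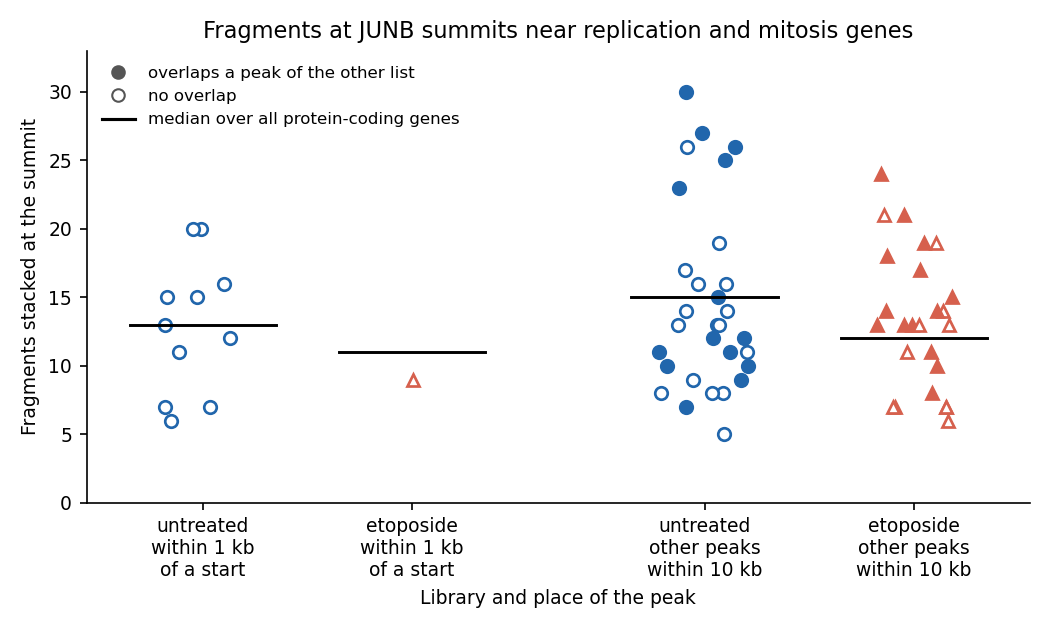
Fragments stacked at each JUNB summit near the 55 genes (y axis), for peaks within 1 kb of a listed start and all other nearby peaks of both libraries (x axis); genes with no promoter entry count under the other peaks. Filled points overlap a peak of the other list, and black lines are medians over all protein-coding genes. All 11 untreated start peaks are open, with 6 to 20 fragments, and the only etoposide start peak has 9.

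Other genes of the same pathways were taken from 3 further lists. Of 34 other replication genes, 14 had an untreated boundary summit (41.2%) and 3 an etoposide one (8.82%), where genes of similar length gave 18.5% and 7.53%. The 14 included FEN1, the flap nuclease, POLA2, POLD2, POLD4, POLE3, PRIM2, RPA2, RPA3, ORC2, ORC6 and DUT, and FEN1, WDHD1 and RPA3 had one in both lists. Of 34 other mitosis genes, 10 had an untreated and 2 an etoposide boundary summit (29.4% and 5.88%, against 19.0% and 7.7%), with NDC80, NUF2 and KNL1 of the kinetochore among the 10. Of 25 genes of cell cycle control, 9 had an untreated one, among them RB1, CCND1, CCND3, CDK4 and E2F3, and 2 had an etoposide one, CDK2 and E2F6 (36% and 8%, against 17.8% and 7.43%). Together 33 of these 93 genes had an untreated boundary summit, 35.5%, and 7 an etoposide one, 7.53%. All protein-coding genes gave 16.6% and 6.87%. The untreated share of the 3 lists was thus above that of the 55 genes, and the etoposide share near it. The genes and the 3 lists were chosen with earlier results of these data known, so this is no independent comparison, and the difference was not tested. In the untreated list alone there were 27 of 93 (29.0%) and in the etoposide list alone 1 (1.08%), against 11.4% and 1.7% of all protein-coding genes. Neighbouring genes share some of these places: of the 10 untreated boundary peaks of the 55 genes, 5 had another protein-coding gene within 1 kb of the summit.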

How the data were processed

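JUNB CUT&RUN was done on 2 IMR-90 libraries, 1 untreated and 1 etoposide. Bowtie2, MACS2 and the builds hg38 and mm10 are named per the submitters' processing notes, without versions or settings. The authors deposited 1 peak list per library, with fold over local background at the summit (a ratio), -log10 p and -log10 q, a score and the summit position. In 100% of peaks the authors' score is 10 times -log10 q without its decimals. The lowest deposited -log10 q is 2.03 untreated and 2.0 with etoposide. The authors' values served to describe and rank peaks inside 1 list, and ranks are by -log10 q over all its peaks.

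Gene positions and promoters came from RefSeq GRCh38, patch 14. As a check of the build, 9.37% of untreated summits lay within 1 kb of a gene boundary, against 3.06% to 3.12% with genes moved by 10 or 100 kb either way (etoposide 4.88% and 2.56% to 2.85%). Coordinates count from 1. Fragments at the summit are the whole number k, with background b, for which (k + 1)/(b + 1) gives the deposited fold and the Poisson upper tail the deposited -log10 p within 0.001. Such a k was found for 100% of peaks, and the method was tested on simulated data. Peaks of the 2 lists are shared when they overlap by 1 bp or more. Genes of similar length are all protein-coding genes in 10 length groups, weighted as the 55 genes fall in them. No test between libraries was run. The genes and lists were chosen with earlier results of these data known. By the rule for named genes, position, fold, -log10 q, rank and fragments were to be given for genes with a boundary summit, a shared peak or one of the 5 best ranked peaks of a list. Boundary summits are printed mostly in full and the rest in shorter form. Promoters were to be printed for up to 6 genes with an untreated summit inside the promoter region, best rank first, none from chromosome 8. They are printed instead for the 6 best ranked untreated start summits, which lay outside the promoter window. The untreated summits of TK1 and CDC25C lay inside that window and ranked lower, so these promoters are not printed. Python 3.11.15, pandas 2.3.3 and SciPy 1.17.1 were used.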

Additional observations from a re-analysis of the deposited data

How the results depend on the processing

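Boundary counts (10 untreated, 3 etoposide, 9 in the untreated list alone, 2 in the etoposide list alone) moved by over 1.5 times in 10 of 32 recounts. The 10000 strongest peaks gave 2, 1, 2 and 1, where all protein-coding genes gave 3.62%, 1.95%, 2.38% and 0.716%. A -log10 q of at least 5 left 1 in the etoposide list alone (1.47% of all genes). The 0.5 kb window and the gene start only each gave 1 etoposide gene and 0 in that list alone. All genes gave 4.76% and 1.37% in the 0.5 kb window, and genes with a listed start gave 6.61% and 1.45%. The 3 kb window gave 6 etoposide genes, where all genes gave 12.8%. The untreated count was above the etoposide count in all of these, and the same held for the shares over all genes. Counts within 10 kb (30, 23, 13 and 6) moved in 9 of 28. The 10000 strongest peaks gave 8 untreated, 13 etoposide and 2 in the untreated list alone, so the order of the libraries turned. Over all genes the shares were 21.6%, 20% and 7%, and the order did not turn. Summits inside the gene gave 19 untreated and 7 in that list alone, where all genes gave 33.4% and 9.48%. The 50 kb window gave 47, 42, 8 and 3, where all genes gave 72%, 62.6%, 13.5% and 4.05%. Overlap of 50% of both peaks left 9 shared peaks near the genes in each list. Over all peaks of chromosomes 1 to 22 and X, 33.9% untreated and 42.9% etoposide were shared by that rule. Summits within 500 bp gave 17, where the shares over all peaks were 56.5% and 68.8%. The 1 bp rule gave 15, beside 51% and 64.8%.

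The background share at boundaries was 16.6% and 6.87% (untreated and etoposide) with no matching and 20.2% and 8.02% by promoter GC. Within 10 kb it was 38.9% for etoposide with no matching, 53.9% and 40.9% by promoter GC, and 48.8% and 35.6% in the 200 genes nearest in length. Peaks under the threshold of a list cannot be seen, so an unlisted place may hold weak signal. No paired analysis was possible because each condition has 1 library.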
